A study of Mus musculus with 2 samples.

Results

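Keratins are the intermediate filament proteins of epithelial cells, and 9 of them were followed here in lung RNA from mouse embryos at embryonic day 18. The members were the simple-epithelium keratins Krt7, Krt8, Krt18 and Krt19 and the basal and squamous keratins Krt4, Krt5, Krt14, Krt15 and Krt17. They were found as the probe sets whose only listed gene symbol was one of these names, which gave 15 probe sets of 34945 with 1 symbol, and 9 genes of 18193. The samples were normal whole lungs, called wildtype, and whole lungs homozygous for Nmyc9a, a hypomorphic allele of Mycn, the gene of the transcription factor N-Myc. Each group was 1 Affymetrix array made from pooled lungs, while the sources used here do not give strain, sex or the number of lungs in a pool. No difference below therefore has a replicate check or a p-value, and the number of arrays limits the precision.

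A keratin filament is built from pairs of 1 type I and 1 type II protein, so the cell needs both kinds. Krt8 and Krt18 form the basic pair of simple epithelium, the single-layered kind that lines the airways and alveoli, and Krt7 and Krt19 join them in ducts, airways and mesothelium. Krt5 and Krt14 form the pair of basal cells, the stem cells of stratified epithelium and of the large airways. Krt15 is also a basal-layer keratin, Krt17 appears in basal and stressed epithelium, and Krt4 pairs with Krt13 above the basal layer of moist squamous epithelium such as the oesophagus.

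N-Myc binds DNA at E-boxes, so the sequences just before the transcription start are shown for the type II gene Krt5 and for the 3 simple-epithelium genes found in the RefSeq promoter table (GRCm38.p6). The table held 5 of the 9 members, Krt14 being the fifth, and Krt4, Krt15, Krt17 and Krt19 were not matched. Each sequence is the 250 bases before the start, 5′ to 3′ on the gene's strand. Capitals mark the E-box letters CANNTG and the GC box letters GGGCGG, searched on both strands. Krt7 lies at chr15:101412153-101412402 on the plus strand, Krt8 at chr15:102004343-102004592 on the minus strand, Krt18 at chr15:102027966-102028215 on the plus strand and Krt5 at chr15:101712906-101713155 on the minus strand.
Krt7: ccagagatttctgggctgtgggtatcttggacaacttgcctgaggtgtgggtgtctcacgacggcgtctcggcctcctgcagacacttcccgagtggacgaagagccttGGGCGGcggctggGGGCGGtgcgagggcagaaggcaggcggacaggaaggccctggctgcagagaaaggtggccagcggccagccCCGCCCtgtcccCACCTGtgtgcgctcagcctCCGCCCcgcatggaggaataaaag
Krt8: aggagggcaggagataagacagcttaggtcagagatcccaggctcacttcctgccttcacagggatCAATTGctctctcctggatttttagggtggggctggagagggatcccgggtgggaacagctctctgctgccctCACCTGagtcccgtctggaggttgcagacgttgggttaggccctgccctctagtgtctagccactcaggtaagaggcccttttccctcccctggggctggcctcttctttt
Krt18: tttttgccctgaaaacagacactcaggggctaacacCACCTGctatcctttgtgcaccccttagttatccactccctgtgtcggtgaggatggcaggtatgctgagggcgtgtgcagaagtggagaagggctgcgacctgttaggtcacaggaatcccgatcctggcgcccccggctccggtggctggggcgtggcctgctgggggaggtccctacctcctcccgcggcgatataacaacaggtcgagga
Krt5: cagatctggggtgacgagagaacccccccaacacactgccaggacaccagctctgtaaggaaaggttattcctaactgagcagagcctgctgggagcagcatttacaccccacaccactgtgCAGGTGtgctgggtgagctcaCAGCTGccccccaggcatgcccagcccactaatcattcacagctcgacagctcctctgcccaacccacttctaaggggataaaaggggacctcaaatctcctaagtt

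Each of the 5 matched windows held CANNTG at least 1 time, as did 66.2% of 32851 promoter windows of this length. None of the 5 held CACGTG, the E-box that Myc and Max prefer, a case of CANNTG which stood in 6.02% of all windows. The letters CACCTG, also a case of CANNTG, stood once in each of the Krt7, Krt8, Krt18 and Krt5 windows, on either strand, and in 17.2% of all windows. Krt7 held 4 GC boxes and the other 4 windows held none, against 32.7% of all windows with at least 1. A match of letters is not a binding site, and CACCTG was counted after these sequences had been read.

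Signals are given after the array labelled Nmyc9a had been multiplied by 0.977, which set the median log2 ratio of probe sets at or above the floor to 0, and always with the wildtype array first. A signal floor of 49.3, the 40th percentile, separated measured from dim values, and a ratio against a value below it is a bound. Measured means that the mean of both signals reached the floor, as it did for 12600 genes. The median deposited signal was 66 on the wildtype array and 77.7 on the other. Mycn read 66.3 and 84.8 by its brightest probe set, so its signal was higher, not lower, where the allele was homozygous. Its other probe sets read 51.1 and 85.4, and 19.7 and 33.9, the last below the floor on both arrays. The sources used here do not say whether these probes cover what the allele alters, so Mycn could not check the label on which each direction here rests.

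Of the 4 simple-epithelium keratins, Krt7, Krt8 and Krt19 were 1.90-fold to 2.25-fold lower on the array labelled Nmyc9a, while Krt18 was closer to the wildtype signal. Krt19, the short type I keratin of airway and mesothelial cells, read 1728 in wildtype and 769 in the array labelled Nmyc9a. It was 2.25-fold lower, a log2 ratio of -1.17. Krt7, a type II keratin of glandular and airway epithelium, read 1526 and 770 and was 1.98-fold lower, a log2 ratio of -0.99. The wildtype signal was the higher one in both.

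Krt8, the type II partner of Krt18, had 3 probe sets, and the wildtype array was higher in each. The brightest read 1597 and 840.1, which is 1.90-fold lower on the array labelled Nmyc9a. The second read 1135 and 427 and was 2.66-fold lower. The third read 928 and 502 and was 1.85-fold lower. The mean log2 ratio of the 3 probe sets was -1.07 with an SD of 0.29, which is a spread between probe sets of 1 pair of arrays and not between animals. Of these probe sets, 2 carry the suffix _x_at, for probes that may also bind other sequences, and RefSeq lists a pseudogene, Krt8-ps, so their values are uncertain in that respect.

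Krt18, the type I partner, read 1076 in wildtype and 855 in the array labelled Nmyc9a, with a log2 ratio of -0.33. Partner keratins thus stood unequally, with the log2 ratio of Krt8 lying below that of Krt18 by a difference of -0.60. The pooled SD between probe sets of the same gene was 0.21 on the log2 scale over 688 genes with several probe sets of signal 500 or more. Over 5671 genes with several measured probe sets of any signal that SD was 0.40. Neither value is the spread of a difference between 2 genes. Krt18 has 1 probe set, so its own spread is unknown.

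**Figure D1:**
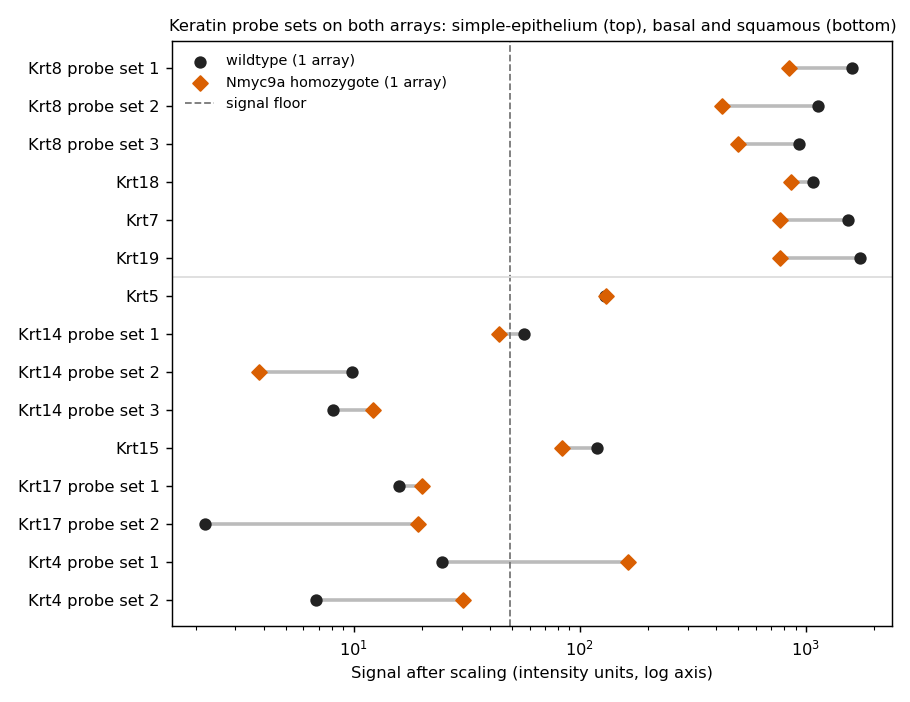
Signal of every keratin probe set for wildtype (black circles) and for the array labelled Nmyc9a (orange diamonds), on a log axis in intensity units, with the signal floor of 49.3 as a dashed line. All 6 probe sets of simple-epithelium keratins lie well above the floor with the wildtype value to the right, whereas most basal and squamous probe sets lie near or below the floor.

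The background against which these ratios stand is uneven. Of 12600 measured genes, 1222 (9.7%) were at least 1.5-fold lower and 797 (6.33%) at least 1.5-fold higher on the array labelled Nmyc9a. All 4 simple-epithelium keratins were measured, and 3 of them were at least 1.5-fold lower and none higher. At 2-fold, Krt19 was the one keratin lower and Krt4 the one higher by the brightest probe set, beside 1.38% and 1.29% of all measured genes. Krt7 fell just short at 1.98-fold lower, and another probe set of Krt8 was 2.66-fold lower. The median log2 ratio of the simple keratins was -0.96, beside -0.09 for all measured genes. Bright genes sat lower in general, since the 2241 genes with a mean signal of 500 or more had a median of -0.21, and 11.2% of them were at least 1.5-fold lower and 1.74% higher. Among those bright genes, 7 had a ratio as low as that of Krt19 or lower, 25 as low as that of Krt7 and 37 as low as that of Krt8, each count including the keratin itself. By contrast 808 (36.1%) stood as low as Krt18, so the Krt18 ratio lay well within the run of bright genes.

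**Figure D2:**
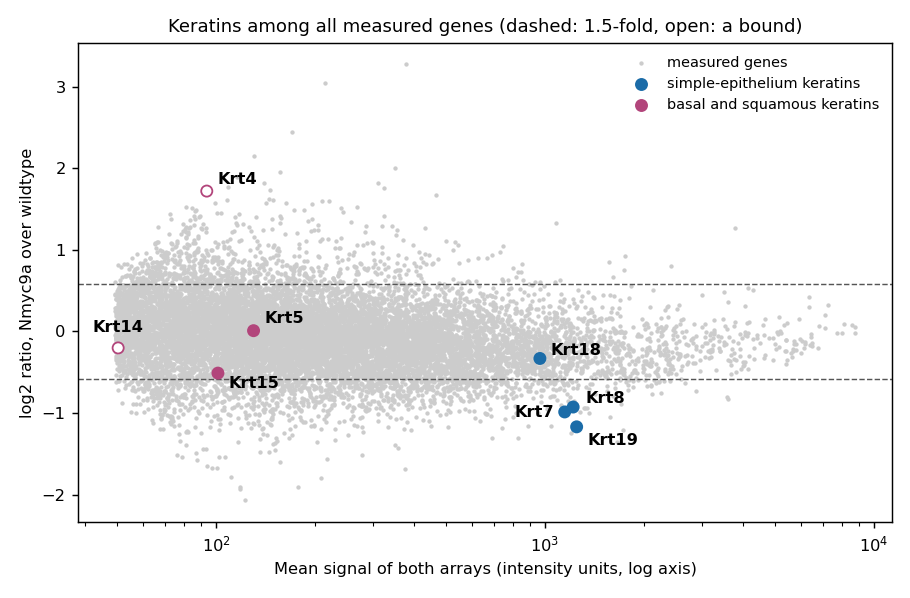
The log2 ratio of the array labelled Nmyc9a over wildtype against the mean signal of both arrays (log axis) for each measured gene in grey, with simple-epithelium keratins in blue and basal and squamous ones in purple, open where the ratio is a bound. Krt7, Krt8 and Krt19 sit together at the lower edge of the bright genes, from -0.93 to -1.17, and Krt4, whose ratio is a bound, is drawn at 1.72.

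The basal and squamous keratins went different ways, and most of their probe sets were dim. Krt5, the type II keratin of basal cells, read 129 in wildtype and 130.3 in the array labelled Nmyc9a, with a log2 ratio of 0.01. The arrays were nearly equal, and the sign turned with quantile normalization (-0.10) and loess (-0.05). Krt14, the partner of Krt5, read 56.7 and 43.9 by its brightest probe set, both close to the floor, so the ratio of -0.20 is a bound from a value below it. Its remaining probe sets read 8.1 and 12.2, and 9.8 and 3.81, all below the floor and in opposite directions.

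Krt15, a keratin of the basal layer, read 119 and 83.5, a log2 ratio of -0.51 that is 1.42-fold lower. It passed 1.5-fold after quantile normalization, at -0.67, and after loess, at -0.62. Krt17, a keratin of basal and injured epithelium, stayed below the floor on both arrays in both probe sets, at 15.8 and 20.1 and at 2.2 and 19.4. No fold is given for it. A further probe set listed for both Krt14 and Krt17 was not used for either gene.

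Krt4, the keratin of moist squamous epithelium, was the one member at least 1.5-fold higher on the array labelled Nmyc9a. Its brighter probe set read 24.6 in wildtype, below the floor, and 163 in the array labelled Nmyc9a, so it was at least 3.30-fold higher. Its other probe set read 6.8 and 30.3, also higher on the array labelled Nmyc9a but below the floor on both. The brighter probe set carries the suffix _x_at, and without such probe sets Krt4 was not measured. Krt4 passed the filter only through the array where it was high, so a difference was built into its being measured.

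Of the 5 basal and squamous keratins, 4 were measured, 1 was at least 1.5-fold higher and none was 1.5-fold lower, with a median of -0.10. Among all measured genes 6.33% were higher and 9.7% lower by that size. The median of the simple keratins minus that of the measured basal and squamous ones was -0.86 on the log2 scale. The second median lies midway between Krt5 and the bound of Krt14, and Krt14 and Krt4 were measured only through the array where they were high, so the difference rests on a bound. It ranged from -0.54 (quantile normalization) to -0.97 (floor at the 20th percentile), and as a difference between 2 arrays it has no error. It also sets bright genes against dim ones, and bright genes sat lower in general (median -0.21, against -0.09 for all measured genes). After loess on the mean signal the difference was -0.60.

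Krt13, the type I partner of Krt4, read 26.5 and 59.8, higher on the array labelled Nmyc9a but with a mean below the floor. Of a list of 44 other keratins, 37 were on the array and 13 were measured. Of these, 1 was at least 1.5-fold higher and 1 lower, beside 6.33% and 9.7% of all measured genes. The median of the 13 was 0.12, turning to -0.01 after quantile normalization. The higher one was Krt6a, a keratin of wounded and fast-growing epidermis, at 68.4 and 108 (1.57-fold). It lost that size after quantile normalization (0.48), loess (0.52), the pseudocount (0.42) and with x, s and a probe sets left out (0.55). The lower one was Krt23, a type I keratin, at 86.5 and 54.1 (1.60-fold), or -0.39 with the pseudocount. With the floor at the 60th percentile neither was measured. Krt42, a type I keratin gene next to Krt17, read 423 and 599.9, a log2 ratio of 0.50. It passed 1.5-fold after quantile normalization (0.62) and loess (0.67) but was not measured without x, s and a probe sets. Krt71, a hair follicle keratin, stood at -0.28. Krt79, next to Krt4, read 47.6 and 70.2, a log2 ratio of 0.51 or higher.

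Most keratin genes lie in a type II cluster on chromosome 15, with Krt18 at its end, and a type I cluster on chromosome 11. On chromosome 15, 14 of 26 keratin genes were measured, 2 were at least 1.5-fold higher and 2 lower, and the median was 0.09. The higher ones were Krt4, whose ratio is a bound, and Krt6a, and the lower ones were Krt7 and Krt8. On chromosome 11, 7 of 27 were measured, 2 were lower (Krt19 and Krt23) and none was higher (median -0.20). Every gene past 1.5-fold in these counts is reported above, so the counts of higher and lower genes add no new result. Across the array, 6.33% of measured genes passed 1.5-fold upward and 9.7% downward. Neighbours differed: Krt8 stood at -0.93 while Krt78, the next keratin gene on one side, stood at 0.12 and Krt18 on the other at -0.33. Krt15 and Krt19 are neighbours as well, and both were below 0.

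**Figure D3:**
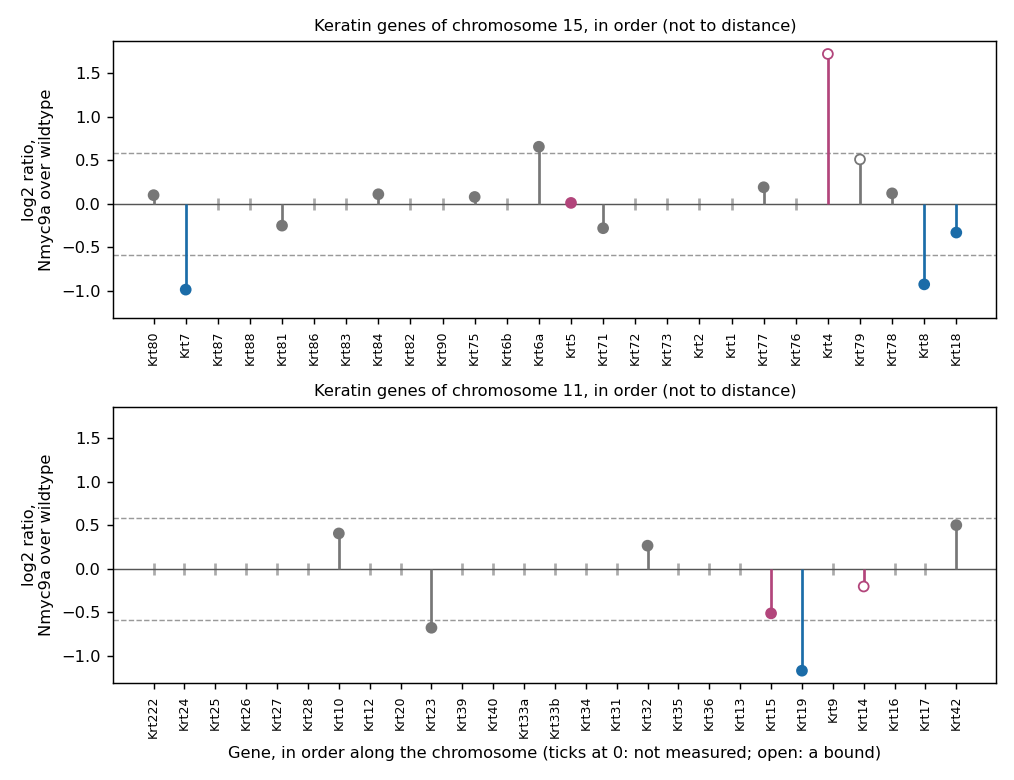
The log2 ratio of each measured keratin gene in its order along chromosome 15 (top) and chromosome 11 (bottom), with simple-epithelium keratins in blue, basal and squamous ones in purple and other keratins in grey, and open symbols for bounds. Low values at Krt7 and Krt8 stand beside Krt80 at 0.10 and Krt78 at 0.12. The measured neighbours of Krt19, Krt15 at -0.51 and Krt14 at -0.20 (a bound), lie below 0. So does the median of all measured genes, at -0.09.

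Genes of proteins that anchor keratin filaments differed by less than 1.5-fold between the arrays. Of 14 measured genes of desmosomes and hemidesmosomes, the junctions that tie keratins to neighbouring cells and to the basement membrane, none was 1.5-fold higher or lower, and the median was 0.03. With the floor at the 20th percentile, which measures dimmer genes, 3 were higher. Dsp, the desmosomal plakin that binds keratin, read 409 and 527 (log2 ratio 0.37), and Jup, the plakoglobin of the desmosome, read 1008 and 987. Lamb3, a chain of laminin-332, stood highest at 0.39. Pkp3, a desmosomal plakophilin, stood lowest at -0.33, followed by Lama3, another laminin chain, at -0.15. Of 9 measured genes of other intermediate filaments, Lmna, the gene of the A-type lamins, was 1.54-fold lower and none was higher (median -0.13, or 0.08 after loess). The shares of all measured genes past 1.5-fold were 9.7% lower and 6.33% higher. Lmna did not reach 1.5-fold after quantile normalization (-0.57), loess (-0.51), the pseudocount (-0.54) or as the median of its measured probe sets (-0.43), and was not measured without x, s and a probe sets. Vim, the filament protein of mesenchyme, read 6464 and 5899, Nes stood at -0.38, Des at 0.39 and Synm, a filament protein of muscle, at 0.52, or past 1.5-fold after quantile normalization (0.60) and loess (0.64).

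Whole-lung RNA cannot tell fewer cells of a type from less RNA per cell, so genes of the cells that make keratins are given beside the keratins. Of 20 measured genes of general lung epithelium, none was 1.5-fold higher or lower, and the median was -0.04, turning to 0.04 after loess. By that size 9.7% of all measured genes were lower and 6.33% higher. Epcam, an adhesion protein of all lung epithelium, read 691 and 988 by its brightest probe set, a log2 ratio of 0.52. It passed 1.5-fold after quantile normalization (0.71) and loess (0.73) but its probe sets disagreed, with a median of -0.02. Cdh1, E-cadherin, read 1582 and 1355, and Ehf, an epithelial transcription factor, stood at 0.46. Cldn4, a tight junction claudin, stood lowest at -0.58, followed by Cldn7 at -0.41, and Cldn4 passed 1.5-fold after quantile normalization (-0.60). By the median of each gene's probe sets, 1 epithelial gene, the polarity gene Crb3 at -0.62, was 1.5-fold lower. The median of the simple keratins lay below that of general epithelium by a difference of -0.92. None of 5 type 2 alveolar genes passed 1.5-fold (median 0.05), with Abca3 at 0.16, Slc34a2 at 0.10, Sftpa1 at -0.12 and Sftpb within 0.01 of 0.

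Of all measured genes, 9.7% were at least 1.5-fold lower and 6.33% higher. Of 6 type 1 alveolar genes, 1 was at least 1.5-fold lower. Their median was -0.36, none was higher, and their summed signal was 15742 and 12865. Aqp5, a water channel, was 1.63-fold lower, Pdpn stood at -0.45, Hopx at -0.03 and Rtkn2 at 0.06. Of 9 measured mesothelial genes, 4 were at least 1.5-fold lower and none was higher. The median was -0.29, and ranged from -0.18 after loess to -0.76 with the floor at the 60th percentile. Aldh1a2, which makes retinoic acid, read 355 and 148, Lrrn4 stood at -0.90 and Msln, mesothelin, read 982 and 553, while Rspo1 stood at 0.12 and Muc16 at 0.34 or higher. The summed signal of the 10 mesothelial genes on the array was 2802 and 1815, none was at 0, and the defining gene Wt1 read 49.8 and 47, at the floor. Mesothelium also makes Krt7, Krt8, Krt18 and Krt19, and its part in their lower signals was not tested. All 9 measured genes of cell division were lower (median -0.96), from Cdk1 at -0.61 and Mcm2 at -0.83 to Kif23 at -1.35 and Mcm5 at -1.80, and their part was not tested either.

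**Figure D4:**
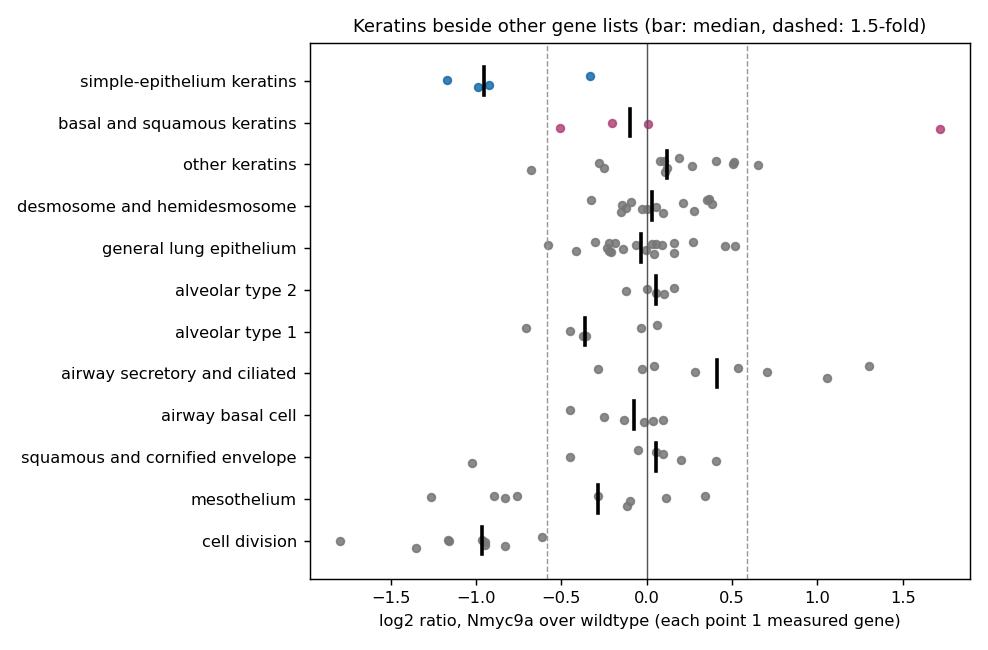
The log2 ratio of each measured gene in the keratin groups and in 10 other gene lists, with the median of each list as a black bar and 1.5-fold as dashed lines. The simple-epithelium keratins (median -0.96) lie to the left of general lung epithelium (median -0.04), and mesothelial genes spread from -1.26 to 0.34.

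Markers of cells that make basal and squamous keratins are given in the same way, beside shares of 9.7% lower and 6.33% higher among all measured genes. A single gene past 1.5-fold in a short list cannot be told from those shares. Of 6 measured airway basal genes none passed 1.5-fold (median -0.08), with Perp at 0.10, Aqp3 at 0.04, Snai2 at -0.25 and Pdpn at -0.45. Trp63, the transcription factor that defines basal cells, read 17.5 and 50.3, with a mean below the floor. Of the 11 listed genes 5 were not measured, namely Trp63, Ngfr, Dapl1, Sfn and Cdh3, so basal cell markers were read only in part. Pdpn is also counted among the type 1 alveolar genes. Of 17 genes of squamous epithelium, 7 were measured, 1 was lower and none higher (median 0.06, but -0.08 after quantile normalization and -0.03 after loess). Lor, a protein of the cornified envelope, was at least 2.04-fold lower, Tgm1 stood at -0.45, Krt10 at 0.41 and Sprr1a at 0.20. Their summed signal was 851 and 912, with 10 of the 17 below the floor in wildtype and 9 in the array labelled Nmyc9a. Of the 17, Krt1, Krt10 and Krt13 are keratins themselves, also listed among the other keratins, and each read higher on the array labelled Nmyc9a. They read 23.7 and 64.2, 74.4 and 98.7, and 26.5 and 59.8, so the sum does not stand apart from the keratins. Of 3 measured thymus epithelial genes, 1 was lower, namely Foxn1 at -0.73, with Ccl25 at -0.51 or lower and Prss16 at -0.09. Of 8 airway secretory and ciliated genes, 3 were higher and none lower (median 0.41). Ccdc39 stood at 1.30 and Scgb3a1 at 1.06, Dnah5 at -0.03 and Tekt1 at -0.28. Their summed signal was 12550 and 15150.1, and their part in the Krt4 signal was not tested.

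**Figure D5:**
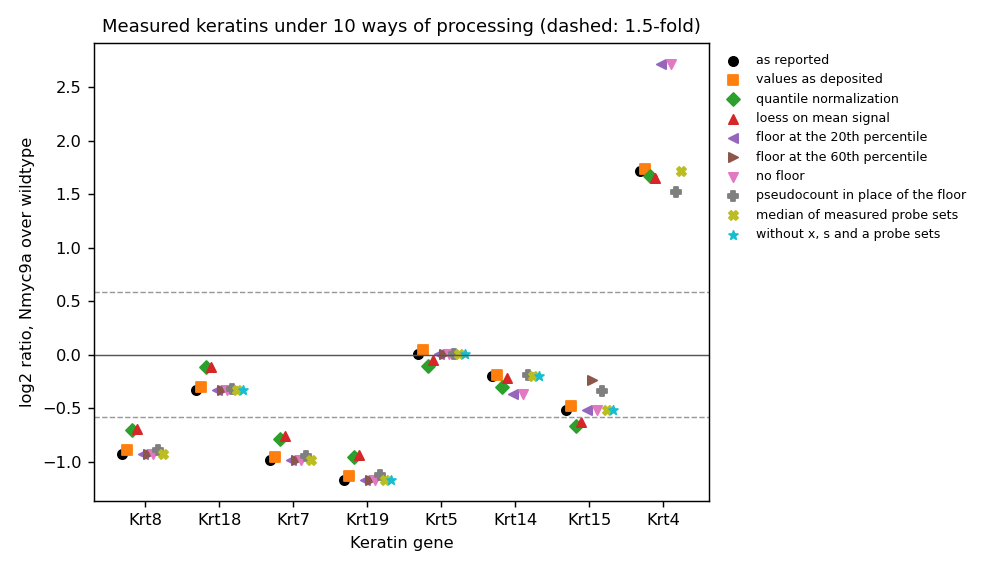
The log2 ratio of each measured keratin as reported (black) and under 9 other ways of processing (colours), with 1.5-fold as dashed lines; a missing symbol means that the gene was not measured that way. Krt7, Krt8 and Krt19 stay below the lower line wherever they were measured, and Krt4 ranges from 1.52 to 2.72.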

How the data were processed

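Total RNA from whole lungs was extracted with Trizol and an RNeasy kit and labelled with biotin by the Affymetrix protocol, per the labels. The authors deposited an intensity on a linear scale for each of 45101 probe sets, with scanner software, summarization and scaling not given in the sources used here. Both arrays had a mean of 150 when 2% was trimmed from each end. The 64 control probe sets were set aside. Gene names came from the platform's annotation and were updated through Entrez identifiers to RefSeq, GRCm38.p6, which matched 34741 of 34945 with 1 symbol, while 932 named several genes and 9160 none. The array labelled Nmyc9a was centred, any signal under the floor was set to the floor, and each gene took its brightest probe set. No test was run with 1 array per group, and genes were counted at 1.5-fold. The 9 members were all named, with the 2 highest and 2 lowest measured genes of each list and any other keratin or anchoring gene past 1.5-fold. Further genes (Krt13, Krt42, Krt78, Krt79, Krt80, Jup, Cdh1, Vim, Wt1, Trp63 and Msln among them), and the signal limit of 500, were chosen after values were seen. The members and lists were chosen with earlier results of these data known. Alternatives were other scalings, floors, sizes and probe set choices. The ratio code was tested on simulated data. Python 3.11.15, numpy 2.4.6, pandas 2.3.3 and statsmodels 0.14.6 (loess, span 0.3) were used.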

Additional observations from a re-analysis of the deposited data

How the results depend on the processing

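Krt7, Krt8 and Krt19 stayed at least 1.5-fold lower under each scaling, floor and pseudocount tried, with log2 ratios from -0.76 to -0.99, from -0.70 to -0.93 and from -0.94 to -1.17. Krt18 ranged from -0.11 (quantile normalization and loess) to -0.33 and was below 0 throughout. Without x, s and a probe sets Krt7 and Krt8 had no probe set left and Krt4 was not measured, which left 1 keratin lower and 0 higher. At 2-fold 1 keratin was lower and at 3-fold 0, by the brightest probe set of each. With the floor at the 60th percentile Krt4 was not measured, so 0 keratins were higher, and its log2 ratio was 2.72 with the floor at the 20th percentile or with none. The comparison lists together had 18 genes lower, 6 at 2-fold and 1 at 3-fold. Of the 18, 9 were genes of cell division and 4 of mesothelium. The share of all measured genes that was lower was 9.7%, 1.38% at 2-fold and 0.0873% at 3-fold. Higher genes numbered 4 as reported, 7 after quantile normalization or loess, and 13 once the floor was lowered to the 20th percentile. They numbered 2 with the pseudocount, without x, s and a probe sets or at 2-fold, and 0 at 3-fold. The higher share of all measured genes was 6.33% as reported, 5.10% after quantile normalization and 6.08% after loess. The lower floor raised that share to 10.6%, and the measured genes from 12600 to 15715. The share was 3.02% with the pseudocount, 7.65% without x, s and a probe sets and 1.29% at 2-fold. How many genes of these lists were measured together is not given, so their counts are not shares. No paired analysis was possible because each group is 1 array. Most basal and squamous probe sets lay near or below the floor, where signal over background limits what can be read.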

Other observations

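Of the 27 keratin genes on the array that were not measured, 22 lay below the floor on both arrays, 4 only on the wildtype array and 1 only on the array labelled Nmyc9a. The same split was not counted over all genes. The array labelled Nmyc9a also had the higher median deposited signal, 77.7 against 66. The values that follow were picked after they were seen. Krt1, a type II keratin of differentiating epidermis, read 23.7 and 64.2, and Krt73, a hair follicle keratin, read 43.8 and 53.3. Krt6b, a close copy of Krt6a, went the other way at 61.8 and 28.8. Krt16, a partner of the Krt6 keratins, read 6.4 and 19.7, below the floor on both arrays.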
